A study of Homo sapiens with 8 samples.

Results

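The effect of elesclomol was measured in SUDHL-4 cells that overexpress FDX1 (FDX1-OE cells). SUDHL-4 is an established cell line from a large B-cell lymphoma of diffuse, germinal-centre type. A pair of RNA-seq libraries from FDX1-OE cells kept in 5 nM elesclomol (ES) for 48 h was compared with a pair from FDX1-OE cells kept in DMSO, the solvent, for 48 h. These are 4 of the 8 libraries of the series. The other 4 are control cells, labelled WT, in DMSO or in 5 nM ES for 48 h, also as pairs, and they serve here only to show where the response of FDX1-OE cells differed. The values are FPKM, read counts scaled by the length of the gene and the depth of the library. A gene was tested if 2 or more of the 4 FDX1-OE libraries had it at 1 FPKM or above, which left 9727 of the 15597 genes listed. Of these, 338 reached 1 FPKM in the ES libraries alone and 22 in the DMSO libraries alone, and such genes had to differ to be tested. The labels do not give the vector or promoter of the FDX1 construct, whether the FDX1-OE cells were a clone, or what vector the control cells carry. Nor do they say that the paired libraries came from separate cultures, and the p-values therefore reflect a spread among these libraries that may be technical.

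Elesclomol is a small molecule that carries copper into cells and releases it in mitochondria. FDX1 encodes ferredoxin 1. This iron-sulfur protein of mitochondria donates electrons to partner enzymes, acts in protein lipoylation and can reduce the copper bound to elesclomol. Copper overload of lipoylated enzymes and loss of iron-sulfur proteins are the textbook features of cuproptosis, a copper-dependent cell death. Germinal-centre B cells divide fast and carry the sensors and receptors of innate immunity. Interferons signal through JAK kinases and STAT factors to a large set of antiviral genes, and NF-kB drives chemokines, TNF family members and survival genes. The integrated stress response slows translation and raises factors such as ATF4, ATF5 and DDIT3, also when mitochondria are damaged.

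The 4 FDX1-OE libraries held between 33435438 and 35270214 reads, and for a 1-kilobase gene 3 reads corresponded to 0.0851 to 0.0897 FPKM. FDX1 was at 72.4 and 69.9 FPKM in the FDX1-OE libraries in DMSO and at 82.5 and 84.8 FPKM in ES. In control libraries it was at 25.6 and 22.2 FPKM in DMSO and at 21.3 and 21.4 FPKM in ES, so every FDX1-OE library lay above every control library. The construct and the endogenous gene were not separated in these values. All 12 germinal-centre B-cell markers that were checked, among them MS4A1, CD79A, PAX5 and BCL6, were at 1 FPKM or more in each FDX1-OE library. Of the T and NK cell markers listed, 5 of 6 were below 1 FPKM in all 4 libraries, as were 5 of 7 myeloid markers and 8 of 9 epithelial and stromal markers. The summed level of the myeloid markers was 8.18 and 7.07 FPKM in DMSO and 36.7 and 39.7 FPKM in ES, nearly all of it from CD68 and FCER1G, while CD14, LYZ, CSF1R and ITGAM were at or below 0.193 FPKM in each of the 4 libraries. In bulk RNA a higher level in each cell and a larger share of cells with the gene cannot be told apart.

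Upstream sequences of 6 genes are shown because the groups they stand for carry the response. EBI3, CXCL10, ATF5 and NOP16 are leading genes of the rises and falls, ISG20 had the smallest p of the interferon-stimulated effectors listed and MT2A that of the metallothioneins. Each sequence is the 250 bases before the transcription start, from RefSeq promoters on GRCh38.p14, written 5′ to 3′ on the strand of the gene. They lie at chr19:4229273-4229522 (plus strand, EBI3), chr4:76023498-76023747 (minus strand, CXCL10), chr19:49928656-49928905 (plus strand, ATF5), chr5:176388599-176388848 (minus strand, NOP16), chr16:56608334-56608583 (plus strand, MT2A) and chr15:88638766-88639015 (plus strand, ISG20). Capitals mark matches on either strand to the interferon-stimulated response element (ISRE, searched as GAAA, any 2 bases and GAAA again), the NF-kB consensus, a C/EBP-ATF element (TGATGNAA), the metal response element (TGCACNC or TGCGCNC) and the E-box CACGTG.
CXCL10: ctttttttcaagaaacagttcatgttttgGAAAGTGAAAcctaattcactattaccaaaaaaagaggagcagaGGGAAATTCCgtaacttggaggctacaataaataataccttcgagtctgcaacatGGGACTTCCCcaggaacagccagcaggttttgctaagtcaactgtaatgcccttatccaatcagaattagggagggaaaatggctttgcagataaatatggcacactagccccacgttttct
ISG20: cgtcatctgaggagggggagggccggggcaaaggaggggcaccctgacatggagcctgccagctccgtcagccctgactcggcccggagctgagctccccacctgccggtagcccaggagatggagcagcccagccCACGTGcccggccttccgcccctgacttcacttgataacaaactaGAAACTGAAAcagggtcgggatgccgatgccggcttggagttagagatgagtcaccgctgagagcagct
ATF5: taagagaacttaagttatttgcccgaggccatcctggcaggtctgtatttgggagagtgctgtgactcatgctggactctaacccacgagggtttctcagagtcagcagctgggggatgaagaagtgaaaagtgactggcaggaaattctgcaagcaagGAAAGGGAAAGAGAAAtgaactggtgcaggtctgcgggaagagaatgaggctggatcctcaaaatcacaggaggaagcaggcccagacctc
EBI3: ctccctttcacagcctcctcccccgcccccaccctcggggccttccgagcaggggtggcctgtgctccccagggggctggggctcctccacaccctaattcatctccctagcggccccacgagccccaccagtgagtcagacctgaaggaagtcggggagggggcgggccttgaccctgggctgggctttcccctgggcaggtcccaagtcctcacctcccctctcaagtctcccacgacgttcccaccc
MT2A: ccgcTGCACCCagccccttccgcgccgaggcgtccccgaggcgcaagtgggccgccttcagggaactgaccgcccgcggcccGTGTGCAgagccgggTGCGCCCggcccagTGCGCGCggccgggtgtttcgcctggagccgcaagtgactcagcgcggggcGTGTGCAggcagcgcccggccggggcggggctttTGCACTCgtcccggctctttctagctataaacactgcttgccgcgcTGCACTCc
NOP16: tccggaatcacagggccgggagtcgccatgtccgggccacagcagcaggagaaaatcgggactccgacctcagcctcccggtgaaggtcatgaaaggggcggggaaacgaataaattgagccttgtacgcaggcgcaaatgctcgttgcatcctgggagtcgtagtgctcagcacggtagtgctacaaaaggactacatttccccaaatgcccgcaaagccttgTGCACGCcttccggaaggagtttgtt
CXCL10, a chemokine for activated T cells, holds 1 ISRE match and 2 NF-kB matches, the ISRE match beginning 221 bases before the start. ISG20 holds 1 ISRE match, 69 bases before the start, and 1 E-box match. ATF5 holds 2 ISRE matches that overlap, 91 and 85 bases before the start. MT2A, a metallothionein, holds 7 metal response element matches, and NOP16 holds 1. EBI3 has no match to these letters in this window. A match describes the letters only, and no binding was measured.

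With ES, 5502 genes were called (56.6% of those tested). Of these, 3622 genes were higher (37.2% of those tested) and 1880 lower (19.3%) at an adjusted p below 0.05. Of the higher genes 310 were among the 338 that reached 1 FPKM in ES alone, and of the lower genes 18 were among the 22 that did so in DMSO alone. Most calls were small: 4365 of the 5502 (79.3%) were changes of less than 1.5 times on the scale of FPKM + 1, on which all folds here are given. A change of at least 2 times was called for 284 higher genes (2.92%) and 9 lower genes (0.0925%). A change of at least 4 times was called for 48 genes, and all 48 were higher. Both ES libraries lay above both DMSO libraries for 4921 genes (50.6%) and below both for 2832 (29.1%). The balance of higher and lower genes depended on scaling. With RLE factors, which set the median ratio of all genes to a common level, 2374 genes were higher (24.4%) and 3108 lower (32.0%). The median log2 change of all genes was then -0.03 in place of 0.09. All 284 of the genes with a rise of at least 2 times were also called higher with RLE scaling, and no gene was called in opposite directions.

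Abundant genes were called lower more often than scarce ones. Among 984 genes with a mean below 2 FPKM, 51.5% were called higher and 3.96% lower, but 314 of them were tested through ES alone and 22 through DMSO alone. Of the other 648 genes in that range 34.1% were called higher and 3.24% lower, with a median log2 change of 0.16. Of 1578 such genes from 2 to 5 FPKM 46.5% were higher and 7.1% lower. Among 620 genes at 100 FPKM or more, all tested on both groups, 21.9% were called higher and 39.7% lower, with a median of -0.06. The share called higher therefore did not fall steadily with the level. The 100 genes with the most reads took 19.4% and 19.2% of the reads in DMSO and 18.1% and 18.4% in ES. The FDX1-OE libraries had 9336 and 9315 genes at 1 FPKM or more in DMSO and 9737 and 9754 in ES.

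**Figure D1:**
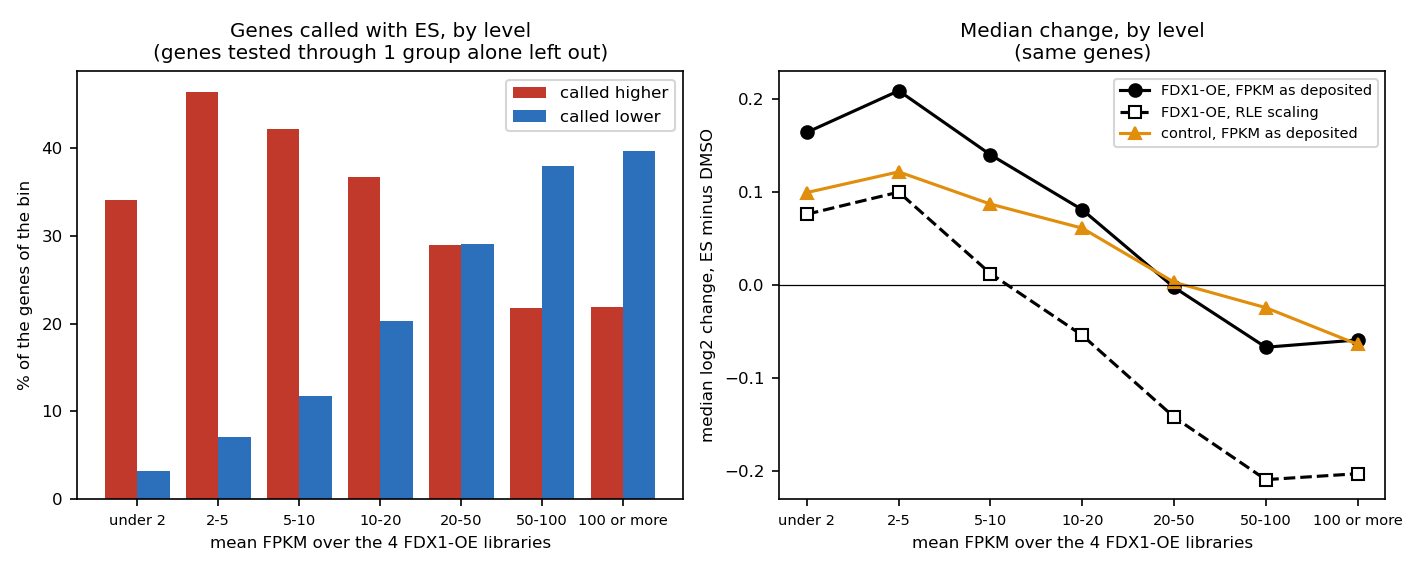
Percentage of genes called higher (red) or lower (blue) with ES in FDX1-OE cells (left) and median log2 change of FPKM + 1 (right), against the mean FPKM over the 4 FDX1-OE libraries in 7 bins, without the genes tested through ES or DMSO alone. Genes called higher were 34.1% of the bin below 2 FPKM, 46.5% of the next and 21.9% of the bin at 100 FPKM or more, and the RLE line runs below the line for the values as deposited in each bin.

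EBI3 had the largest log2 change of the genes with a mean of at least 5 FPKM in ES. It encodes a subunit of interleukins 27 and 35. EBI3 was at 2.07 and 2.07 FPKM in DMSO and 42.6 and 39.7 FPKM in ES, which is 13.7 times (log2 change 3.78, SE 0.16, adjusted p = 1.054e-07). The 2 pairs of libraries did not overlap. IL2RA, the high-affinity chain of the interleukin 2 receptor, was at 0.203 and 0.177 FPKM in DMSO and 4.55 and 3.19 FPKM in ES, a low level in both groups, and was tested through ES alone. IL10RA, a chain of the interleukin 10 receptor, was at 2.55 and 2.39 FPKM in DMSO and 8.89 and 8.45 FPKM in ES and rose 2.78 times (adjusted p = 1.2e-06). IL21R and IL2RG, which form the interleukin 21 receptor, rose 1.51 and 1.59 times, while IL4R fell to 0.734 times its DMSO level. In all 8 of 11 tested interleukin genes and receptors were called higher and 2 lower, beside 37.2% and 19.3% of all tested genes. Among the higher ones 2 were tested through ES alone.

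Chemokine genes rose together. CXCL10 was at 6.04 and 5.85 FPKM in DMSO and 73.4 and 68.4 FPKM in ES and rose 10.3 times (log2 change 3.37, SE 0.11, adjusted p = 2.4e-08). CXCL11, a ligand of the same receptor, was at 2.78 and 2.06 FPKM in DMSO and 23.2 and 23.4 FPKM in ES and rose 7.13 times (adjusted p = 1.054e-07). CCL5, which draws T cells and monocytes, was at 5.07 and 6.42 FPKM in DMSO and 46.2 and 50.7 FPKM in ES and rose 7.36 times (adjusted p = 3.56e-08). In each of these 3 genes both ES libraries lay far above both DMSO libraries. CCL22, a ligand for regulatory T cells, went from 3 and 14 reads in DMSO to 679 and 837 reads in ES, or from 0.0292 and 0.143 FPKM to 6.69 and 8.14 FPKM. CCL3 and CCL4, whose reads can be shared with near-identical copies, rose 2.89 and 1.74 times. Of 17 chemokines listed, 6 passed the filter, 6 of these were called higher and 1 (CCL22) was tested through ES alone. Over all tested genes 37.2% were called higher.

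Several ligands of the TNF family rose, and so did some of its receptors. TNFSF10, which encodes the death ligand TRAIL, was at 1.1 and 1.62 FPKM in DMSO and 16.9 and 18.9 FPKM in ES and rose 8.04 times (log2 change 3.01, SE 0.15, adjusted p = 1.9e-07). LTB, the membrane anchor of lymphotoxin, was at 12.3 and 11.1 FPKM in DMSO and 47.7 and 43.8 FPKM in ES and rose 3.68 times (adjusted p = 5.32e-08). LTA, its partner, was at 1.84 and 1.73 FPKM in DMSO and 11.9 and 11.4 FPKM in ES, and TNF was at 5.52 and 4.4 FPKM in DMSO and 14 and 14.9 FPKM in ES. LTA rose 4.53 times and TNF 2.6 times, with the groups apart in both. Among receptors CD40, which receives T-cell help, was at 18.3 and 17.1 FPKM in DMSO and 43.2 and 42.1 FPKM in ES and rose 2.33 times (adjusted p = 1.5e-07). TNFRSF17, a receptor of plasma cells, rose 1.86 times. The TRAIL receptor TNFRSF10A fell to 0.783 times its DMSO level (16 and 16.9 FPKM in DMSO, 13 and 12.3 FPKM in ES). TNFRSF10B, the other death receptor for TRAIL, did not pass (log2 change 0.09, adjusted p = 0.375), and FAS stayed below 1 FPKM in all 4 libraries. Of the 15 family members tested 11 were called higher and 1 lower, beside 37.2% and 19.3% of all tested genes. Among the higher ones 1 (TNFRSF1A) was tested through ES alone.

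In the NF-kB pathway some inhibitors and targets and the non-canonical subunits rose. NFKBIA, the main inhibitor and a direct target, was at 20.6 and 22.6 FPKM in DMSO and 56.8 and 49.2 FPKM in ES and rose 2.39 times (log2 change 1.3, SE 0.09, adjusted p = 2.49e-06). TRAF1, an adaptor and target, was at 3.44 and 3.67 FPKM in DMSO and 13.4 and 14.4 FPKM in ES and rose 3.26 times (adjusted p = 6.16e-07). BIRC3, a ubiquitin ligase of the pathway, rose 2.08 times, and the inhibitor NFKBID 2.79 times. NFKB2 was at 13.9 and 12.5 FPKM in DMSO and 24.7 and 22.3 FPKM in ES and rose 1.72 times, and its partner RELB rose 1.53 times. The canonical subunits RELA (log2 change 0.14, adjusted p = 0.0743) and REL (-0.13, adjusted p = 0.14) did not pass. NFKB1, another canonical subunit, was at 26.5 and 27.2 FPKM in DMSO and 31.6 and 29.5 FPKM in ES. Both of its ES libraries lay above both DMSO libraries. Of 19 genes of the pathway tested on both groups 10 were called higher and 0 lower, with a median log2 change of 0.18 beside 0.08 for all genes not tested through ES alone. A further 2 (NFKBIZ and TNFAIP3) were called higher and tested through ES alone. With RLE scaling 11 of the 21 were higher and 4 lower, beside 24.4% and 32.0% of all tested genes. In the main test those shares over all tested genes were 37.2% and 19.3%.

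Interferon genes were detected in ES. IFNB1, which encodes interferon beta, went from 26 and 18 reads in DMSO to 169 and 178 reads in ES, or from 0.88 and 0.642 FPKM to 5.79 and 6.02 FPKM. IFNL3, an interferon lambda, was at 2.21 and 2.32 FPKM in DMSO and 14.1 and 13.3 FPKM in ES (adjusted p = 8.16e-07). Its reads can be shared with IFNL2, a near-identical copy. IFNL1 was at 0.843 and 0.54 FPKM in DMSO and 6.05 and 6.26 FPKM in ES. IFNB1 and IFNL1 were tested through ES alone. IFNG was at or below 0.0475 FPKM in the 4 libraries. The receptor genes moved little: IFNAR1 (log2 change 0.05, adjusted p = 0.583), IFNAR2 (0.04, adjusted p = 0.57) and IFNLR1 (0.06, adjusted p = 0.538) did not pass. IL10RB, shared by the lambda and interleukin 10 receptors, rose 1.28 times.

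Sensors and transcription factors of the pathway rose as well. DDX58, which encodes the RNA sensor RIG-I, was at 2.83 and 4.38 FPKM in DMSO and 19.4 and 20.5 FPKM in ES and rose 4.62 times (adjusted p = 9.56e-07). IFIH1, the sensor of long double-stranded RNA, was at 4.22 and 6.53 FPKM in DMSO and 22.7 and 22.4 FPKM in ES and rose 3.75 times (adjusted p = 4.59e-06). ZBP1, a sensor of left-handed nucleic acids that can start necroptosis, went from 18 and 26 reads to 465 and 508 reads. The adaptor MAVS missed the threshold (log2 change -0.06, adjusted p = 0.509) but was called lower under RLE scaling (adjusted p = 0.0416). Of 10 sensors tested on both groups 8 were called higher and 1 (TLR9) lower. STAT2 was at 16.1 and 19.4 FPKM in DMSO and 60.0 and 55.9 FPKM in ES and rose 3.15 times (log2 change 1.66, SE 0.10, adjusted p = 8.74e-07). IRF9 rose 2.82 times and IRF1 2.71 times, and IRF7, which amplifies interferon production, went from 9.66 and 15.6 FPKM to 56.5 and 55.1 FPKM. SOCS1, the feedback inhibitor, rose 2.94 times. IRF3, the factor that starts interferon transcription, fell to 0.813 times its DMSO level and STAT6 to 0.762 times. In all 14 of 17 regulatory factors and JAK-STAT members were called higher and 2 lower, beside 37.2% and 19.3% of all tested genes.

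Most interferon-stimulated effectors rose. IFITM1, a membrane protein that blocks virus entry, was at 13.3 and 24.4 FPKM in DMSO and 195 and 191 FPKM in ES and rose 10.2 times (log2 change 3.35, SE 0.20, adjusted p = 7.97e-07). IFI6 was at 18 and 27.6 FPKM in DMSO and 144 and 150.1 FPKM in ES, IFIT3 at 31.6 and 44.1 FPKM in DMSO and 161 and 161 FPKM in ES and ISG15, a ubiquitin-like modifier, at 456 and 559 FPKM in DMSO and 1353 and 1297 FPKM in ES. In each of these 4 genes DMSO replicate 2 lay above DMSO replicate 1, and both ES libraries lay above both. UBA7, the enzyme that activates ISG15, was at 1.18 and 1.46 FPKM in DMSO and 16.6 and 15.2 FPKM in ES and rose 7.29 times (adjusted p = 3.56e-08). ISG20, an RNA exonuclease whose upstream sequence with its ISRE match is shown above, was at 3.33 and 4.02 FPKM in DMSO and 15.6 and 15.9 FPKM in ES and rose 3.6 times (adjusted p = 1.74e-07). IFI35 rose 7.2 times, XAF1 6.62 times and OASL 5.82 times. Of 30 effectors tested on both groups 28 were called higher and 0 lower, with a median log2 change of 1.98 beside 0.08 for all genes not tested through ES alone. IFITM2 and BST2 did not pass (adjusted p = 0.0662 and 0.39), though IFITM2 did without ES replicate 2 (adjusted p = 0.0244). A further 3 (IFIT5, OAS3 and RTP4) were called higher and tested through ES alone. MX1 and USP18, also interferon-stimulated, were at or below 0.238 FPKM in all 4 libraries. The myeloid markers CD68 and FCER1G moved with this block: CD68 was at 1.85 and 2.02 FPKM in DMSO and 18 and 17.1 FPKM in ES and FCER1G at 6.21 and 4.92 FPKM in DMSO and 18.3 and 22.3 FPKM in ES, and their part in the result was not tested, while CD14, LYZ, CSF1R and ITGAM were near 0.

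**Figure D2:**
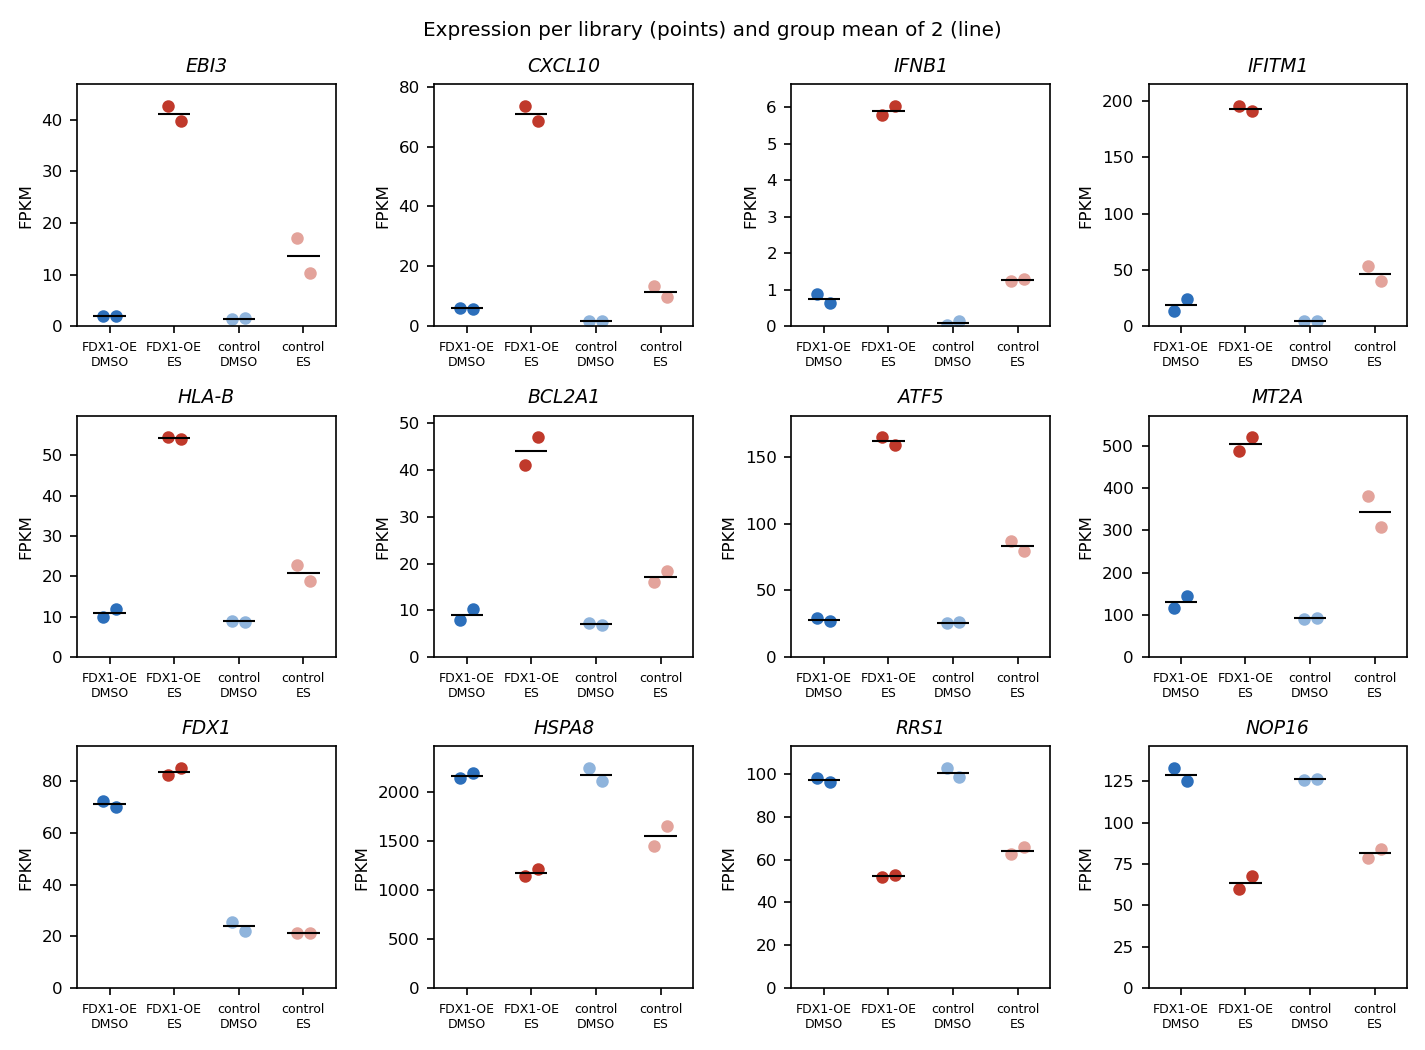
FPKM of 12 genes in each of the 8 libraries (points) with the mean of each pair (line), for FDX1-OE cells in DMSO and ES and for control cells in DMSO and ES. In FDX1-OE cells the ES libraries lie above the DMSO libraries for EBI3 to FDX1 and below them for HSPA8, RRS1 and NOP16, and FDX1 lies above 69 FPKM in each FDX1-OE library.

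Most genes of MHC class I presentation rose, and the changes of class II genes were smaller. HLA-B was at 9.91 and 12 FPKM in DMSO and 54.4 and 54 FPKM in ES and rose 4.63 times (log2 change 2.21, SE 0.10, adjusted p = 1.1e-07). HLA-C rose 3.02 times and HLA-E 2.51 times, though reads of these related genes may be shared. B2M, the light chain, was at 484 and 576 FPKM in DMSO and 1046 and 1118 FPKM in ES and rose 2.05 times (adjusted p = 1.86e-06). TAP1, the peptide transporter, rose 2.22 times, and NLRC5, the transcriptional activator of class I genes, rose 2.61 times from 1.11 and 1.55 FPKM to 5.24 and 4.9 FPKM. In all 12 of 18 class I genes were called higher and 0 lower (median log2 change 0.68). Class II genes had 8 of 13 higher and 1 lower (median 0.18), but 4 higher and 3 lower with RLE scaling (median 0.04). Over all tested genes 37.2% were higher and 19.3% lower, and 24.4% and 32.0% with RLE scaling. The class II counts with RLE scaling are near these shares and are no result about the list. HLA-DRA was at 551 and 573 FPKM in DMSO and 676 and 736 FPKM in ES and rose 1.26 times (adjusted p = 5.34e-04). CIITA, the activator of class II genes, missed the threshold (log2 change -0.16, adjusted p = 0.0964) but was called lower under RLE scaling (adjusted p = 0.00836). Of surface genes for T-cell contact, CD83 rose 2.54 times, CD86 2.13 times, ICAM1 1.68 times and LGALS9, a galectin, 5.9 times. SIGLEC10, an inhibitory receptor, was at 45.1 and 49.2 FPKM in DMSO and 29.8 and 30.7 FPKM in ES and fell to 0.649 times its DMSO level (adjusted p = 1.11e-05).

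ATF5 had the smallest p of all genes tested. This transcription factor, which acts in the integrated stress response and in that of mitochondria, was at 29.1 and 27.3 FPKM in DMSO and 164 and 159 FPKM in ES and rose 5.57 times (log2 change 2.48, SE 0.06, adjusted p = 3.06e-09). ATF4, the hub of the response, is controlled mainly by translation. Its mRNA was at 72.3 and 67.4 FPKM in DMSO and 80.7 and 84.1 FPKM in ES, a rise of 1.18 times (adjusted p = 0.00405) that did not pass with RLE scaling (adjusted p = 0.173). PPP1R15A, which turns the response off by dephosphorylating eIF2 alpha, was at 17.1 and 15.5 FPKM in DMSO and 52.4 and 47.7 FPKM in ES and rose 2.95 times (adjusted p = 6.45e-07). SESN2, an inhibitor of mTORC1, rose 2.65 times, DDIT3 1.85 times and TRIB3 1.72 times. CHAC1, which degrades glutathione, was at 0.603 and 0.691 FPKM in DMSO and 4.51 and 4.01 FPKM in ES, and ATF3 at 0.198 and 0.344 FPKM in DMSO and 2.65 and 3.09 FPKM in ES. Of 13 regulators tested on both groups 12 were called higher and 0 lower, and a further 3 (ATF3, CHAC1 and JDP2) were called higher and tested through ES alone. With RLE scaling 10 of the 16 were higher and 1 lower, beside 24.4% and 32.0% of all tested genes. In the main test those shares over all tested genes were 37.2% and 19.3%.

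The metabolic targets of that response split. MTHFD2, of mitochondrial folate metabolism, was at 71.3 and 73.5 FPKM in DMSO and 106 and 108 FPKM in ES and rose 1.48 times (adjusted p = 7.21e-06). PSAT1, of serine synthesis, rose 1.5 times, and ASNS, which makes asparagine, 1.41 times. The proline synthesis genes PYCR1 (104 and 93 FPKM in DMSO, 68.8 and 62 FPKM in ES) and ALDH18A1 fell to 0.668 and 0.729 times their DMSO levels. Of 20 cytosolic aminoacyl-tRNA synthetases 11 fell and 3 rose. The count of falls was 7 without FDX1-OE DMSO replicate 1. FARSA fell to 0.671 times and VARS1 to 0.698 times their DMSO levels. WARS1, which interferon also induces, was at 38.6 and 41.5 FPKM in DMSO and 99.7 and 97.7 FPKM in ES and rose 2.43 times (adjusted p = 1.22e-07). Of the genes that answer unfolded proteins in the endoplasmic reticulum, 9 of 22 genes were called higher and 2 lower, but 5 higher and 7 lower with RLE scaling. Of all tested genes 37.2% were higher and 19.3% lower, and 24.4% and 32.0% with RLE scaling. The counts of higher genes are near these shares and are no result about the list. HERPUD1 rose 1.66 times and XBP1 1.39 times, while the chaperone HSPA5 was at 222 and 218 FPKM in DMSO and 206 and 213 FPKM in ES and did not pass (adjusted p = 0.249).

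Some genes of copper handling and metal storage were called, in both directions. MT2A, a copper- and zinc-binding metallothionein, was at 117 and 144 FPKM in DMSO and 487 and 519.5 FPKM in ES and rose 3.85 times (log2 change 1.95, SE 0.10, adjusted p = 3.35e-07). MT1X was at 19.9 and 21.6 FPKM in DMSO and 37.8 and 48.3 FPKM in ES and rose 2.01 times, with the caution that metallothionein copies are alike. The other metallothioneins listed did not pass the filter. SLC30A1, the zinc exporter, rose 1.3 times (adjusted p = 0.00418). The importer SLC31A1 was at 4.96 and 5.56 FPKM in DMSO and 6.01 and 4.91 FPKM in ES (adjusted p = 0.739) and the exporter ATP7A at 0.739 and 0.852 FPKM in DMSO and 1.02 and 1.048 FPKM in ES (adjusted p = 0.109), and neither passed. CCS, which loads copper into superoxide dismutase, was at 18.1 and 16.7 FPKM in DMSO and 32.1 and 33.1 FPKM in ES and rose 1.83 times (adjusted p = 2.1e-06). LOXL2, a secreted copper amine oxidase, rose 2.52 times. SCO1 and SCO2, which deliver copper to cytochrome c oxidase, fell to 0.806 and 0.721 times their DMSO levels. Of 13 copper handling genes 5 were called higher and 3 lower, but 3 higher and 5 lower with RLE scaling. These are shares near those of all tested genes (37.2% higher and 19.3% lower), so the counts are no result about the list.

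Some lipoylation and iron-sulfur genes were called, in both directions. FDX1 rose 1.17 times (log2 change 0.23, SE 0.07, adjusted p = 0.0119), which did not pass with RLE scaling (adjusted p = 0.277). The call was also lost without FDX1-OE DMSO replicate 2 or ES replicate 2 (adjusted p = 0.0736 and 0.062). LIAS, the lipoate synthase, was at 3.91 and 4.79 FPKM in DMSO and 4.09 and 4.48 FPKM in ES (adjusted p = 0.904) and did not pass. DLAT, the lipoylated core of pyruvate dehydrogenase, was at 54.3 and 59 FPKM in DMSO and 40.3 and 38.7 FPKM in ES and fell to 0.702 times its DMSO level (adjusted p = 5.26e-05). GCSH, the lipoylated protein of glycine cleavage, fell to 0.753 times and PDHA1 to 0.834 times. DLST (log2 change 0.12, adjusted p = 0.139) and DLD (-0.03, adjusted p = 0.667) did not pass. Of 16 genes of the pathway 3 were called higher and 3 lower, with 2 higher and 6 lower under RLE scaling. Of 21 iron-sulfur assembly genes 4 were called higher and 6 lower, and 2 and 9 with RLE scaling. Neither count of higher genes reaches the share over all genes, 37.2%, and the counts of lower genes stand beside 19.3%. HSPA9, the mitochondrial chaperone of the assembly, was at 150.1 and 149 FPKM in DMSO and 103 and 111 FPKM in ES and fell to 0.718 times. Of 19 NRF2 targets 9 were called higher and 7 lower, and without FDX1-OE DMSO replicate 1 or 2 only 4 were lower. With RLE scaling 6 were higher and 8 lower. Those that rose most were FTH1, the iron-storing ferritin heavy chain, at 367 and 369.5 FPKM in DMSO and 781 and 821 FPKM in ES (2.17 times), and SQSTM1, an autophagy receptor, at 44.4 and 45 FPKM in DMSO and 89.2 and 90.6 FPKM in ES (1.99 times). HMOX1, which copper and oxidants can induce, was at or below 0.182 FPKM in all 4 libraries.

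Most heat shock factor 1 targets and chaperones were called lower. HSPA8, the constitutive HSP70, was at 2138 and 2193 FPKM in DMSO and 1139 and 1211 FPKM in ES and fell to 0.543 times the level in DMSO (log2 change -0.88, SE 0.06, adjusted p = 2.1e-06). HSP90AB1 was at 1085 and 1090.4 FPKM in DMSO and 637 and 648 FPKM in ES and fell to 0.591 times (adjusted p = 1.85e-06). FKBP4, which works with HSP90, was at 189 and 185 FPKM in DMSO and 91.4 and 91.4 FPKM in ES and fell to 0.492 times (adjusted p = 1.64e-07). The libraries of each pair nearly coincided in these genes and the pairs did not overlap. Of 18 heat shock factor 1 targets and chaperones 14 fell and 2 rose (HSPA1B and FKBP5), and both rises were lost with RLE scaling. HSPA1B reads can be shared with HSPA1A, its near-identical copy. The mitochondrial chaperonin HSPD1 was at 550.5 and 554 FPKM in DMSO and 369 and 378 FPKM in ES and fell to 0.676 times its DMSO level. Of 14 mitochondrial chaperones and proteases 10 fell and 1 rose. Over all tested genes 19.3% were called lower and 37.2% higher.

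Ribosome biogenesis genes fell, with 1 exception. NOP16, a nucleolar factor of the large subunit, was at 133 and 125 FPKM in DMSO and 59.9 and 67.6 FPKM in ES and fell to 0.498 times the level in DMSO (log2 change -1.01, SE 0.06, adjusted p = 1.01e-06). RRS1, which brings 5S RNA into the large subunit, was at 98 and 96.3 FPKM in DMSO and 51.9 and 52.9 FPKM in ES and fell to 0.544 times (adjusted p = 5.47e-07). DDX21, a nucleolar helicase, was at 109 and 115 FPKM in DMSO and 64.3 and 65.5 FPKM in ES, and nucleolin (NCL) at 305 and 302 FPKM in DMSO and 189 and 173 FPKM in ES. They fell to 0.583 and 0.596 times their DMSO levels. POLR1B, a core subunit of RNA polymerase I, fell to 0.597 times and fibrillarin (FBL) to 0.709 times. Of 36 genes on the list 35 were called lower and 0 higher, with a median log2 change of -0.53 beside 0.09 for all genes. POLR1C was the gene that did not pass (log2 change -0.16, adjusted p = 0.0993). With RLE scaling 36 of 36 were lower. Mitochondrial ribosomal protein genes had 16 of 30 lower and 4 higher, beside 19.3% and 37.2% of all tested genes. MRPL4, among the lower ones, was at 270.2 and 268 FPKM in DMSO and 169 and 174 FPKM in ES.

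Glycolysis genes were mostly lower. LDHA, lactate dehydrogenase, was at 611 and 654 FPKM in DMSO and 360.0 and 386 FPKM in ES and fell to 0.59 times the level in DMSO (log2 change -0.76, SE 0.06, adjusted p = 4.24e-06). GAPDH was at 5576 and 5551 FPKM in DMSO and 4227 and 4343 FPKM in ES, the largest fall in FPKM of the genes tested. HK2, the inducible hexokinase, fell to 0.638 times and PGK1 to 0.679 times. The gene that rose was ALDOC, an aldolase, at 8.4 and 8.02 FPKM in DMSO and 24.6 and 22.5 FPKM in ES, which rose 2.66 times (adjusted p = 5.27e-07). Of 19 glycolysis genes 13 fell and 1 rose. Nuclear genes of the respiratory chain and ATP synthase had 15 of 40 lower and 4 higher, and 22 lower and 1 higher with RLE scaling. In the main test 19.3% of all tested genes were lower, and 39.7% of those with a mean of 100 FPKM or more. NDUFB10 of complex I fell to 0.688 times its DMSO level. Of the citric acid cycle 5 of 17 were higher and 4 lower, with counts of 2 or 3 higher when any 1 of the 4 FDX1-OE libraries was left out. With RLE scaling 2 were higher and 7 lower. Of all tested genes 37.2% were higher and 19.3% lower in the main test, so the counts of 5 and 4 are no result about the list. CS, citrate synthase, was at 317 and 326 FPKM in DMSO and 227 and 230.5 FPKM in ES, and IDH2 at 89.3 and 90.4 FPKM in DMSO and 129 and 122 FPKM in ES.

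Several cholesterol synthesis genes rose and the fatty acid synthase gene fell. IDI1, of the mevalonate pathway, was at 10.5 and 11.2 FPKM in DMSO and 18.5 and 21.7 FPKM in ES and rose 1.78 times (adjusted p = 1.41e-05). HMGCS1, which makes HMG-CoA, was at 18.9 and 20.1 FPKM in DMSO and 28.3 and 29.1 FPKM in ES and rose 1.45 times, and MVD rose 1.62 times. FASN, fatty acid synthase, was at 108 and 97.1 FPKM in DMSO and 73 and 64.4 FPKM in ES and fell to 0.674 times its DMSO level, and SREBF1, which drives it, to 0.71 times. Of 25 SREBP targets and pathway genes 13 were called higher and 4 lower, and 9 and 5 with RLE scaling. Of all tested genes 37.2% were higher and 19.3% lower, and 24.4% and 32.0% with RLE scaling.

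Most S phase genes were called higher, and mitosis genes were more often called lower than higher. CCNE2, a cyclin needed to begin DNA replication, was at 7.77 and 9.0 FPKM in DMSO and 23.6 and 23.1 FPKM in ES and rose 2.6 times (log2 change 1.38, SE 0.07, adjusted p = 2.94e-07). E2F1 was at 77.3 and 73.4 FPKM in DMSO and 137 and 131 FPKM in ES and CDC45, a part of the replicative helicase, at 34.4 and 33.3 FPKM in DMSO and 52.9 and 51.8 FPKM in ES. They rose 1.77 and 1.53 times. PLK1, a mitotic kinase, was at 182 and 178 FPKM in DMSO and 105 and 109 FPKM in ES and fell to 0.598 times its DMSO level (adjusted p = 1.27e-06), and CCNB1, the mitotic cyclin, was at 104 and 99.9 FPKM in DMSO and 64 and 68.1 FPKM in ES. Of 32 S phase genes 22 were higher and 2 lower, and with RLE scaling 16 and 5. Of 32 mitosis genes 4 were higher and 13 lower, and with RLE scaling 2 and 25. Of all tested genes 37.2% were higher and 19.3% lower, and with RLE scaling 24.4% and 32.0%. Of all genes with a mean of 50 to 100 FPKM 37.9% were called lower in the main test. The mitosis genes were not compared with genes of matched level. Replication-dependent histone genes, which lack poly(A) tails as a rule, were higher in 5 of 6 tested, but 4 of the 6 were tested through ES alone. H2BC12 was at 5.73 and 3.41 FPKM in DMSO and 12.7 and 15.4 FPKM in ES. Near-identical histone copies can share reads.

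Survival and death genes of the BCL2 family rose on both sides. BCL2A1, an anti-apoptotic NF-kB target, was at 8.01 and 10.2 FPKM in DMSO and 41 and 46.9 FPKM in ES and rose 4.46 times (log2 change 2.16, SE 0.11, adjusted p = 1.9e-07). BCL2L1 (BCL-XL) rose 1.71 times and MCL1 1.32 times, while BCL2 was at 23.3 and 22.4 FPKM in DMSO and 23.1 and 22.3 FPKM in ES and did not pass (adjusted p = 0.912). The pro-apoptotic PMAIP1 (NOXA) was at 24.6 and 25.6 FPKM in DMSO and 49.6 and 51.7 FPKM in ES and rose 1.98 times (adjusted p = 5.68e-07). BMF rose 1.95 times and BCL2L11 (BIM) 1.61 times. The effectors BAX (log2 change -0.21, adjusted p = 0.0734) and BAK1 (-0.18, adjusted p = 0.0365) had small differences of the other sign. The fall of BAK1 was lost without FDX1-OE DMSO replicate 1 or 2 or ES replicate 2 (adjusted p = 0.162, 0.0755 and 0.222). Of 13 family members tested on both groups 7 were called higher and 1 (BAK1) lower. GSDMD, the pyroptosis pore, was at 0.998 and 0.847 FPKM in DMSO and 3.54 and 4.16 FPKM in ES, and GSDME at 0.694 and 0.665 FPKM in DMSO and 3.23 and 3.33 FPKM in ES, low levels in both groups, and both were tested through ES alone. RIPK1 rose 1.53 times and CASP8 1.44 times, and FADD, their adaptor, fell to 0.806 times. CDKN1A, the p53 target that encodes p21, was at 0.387 and 0.341 FPKM in DMSO and 2.53 and 2.6 FPKM in ES and was tested through ES alone. Of 16 p53 targets tested on both groups 8 were called higher and 1 lower, and no gene was lower without FDX1-OE DMSO replicate 1 or ES replicate 2. Of all 19 p53 targets tested 10 were higher and 4 lower with RLE scaling. The BCL2 family and p53 counts stand beside 3312 of the 9389 genes not tested through ES alone that were called higher. Over all tested genes 19.3% were lower in the main test. With RLE scaling 24.4% of all tested genes were higher and 32.0% lower.

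Germinal-centre identity genes went both ways. LMO2 was at 5.83 and 5.92 FPKM in DMSO and 13.9 and 13.9 FPKM in ES and rose 2.16 times (log2 change 1.11, SE 0.07, adjusted p = 1.06e-06), and CD38 rose 1.63 times. BCL6, the master repressor of the germinal centre, was at 71.4 and 70.6 FPKM in DMSO and 55.8 and 53.7 FPKM in ES and fell to 0.774 times its DMSO level (adjusted p = 8.49e-04), and RGS13 fell to 0.643 times. MS4A1, which encodes CD20, was at 160.2 and 175 FPKM in DMSO and 177 and 199 FPKM in ES and did not pass (adjusted p = 0.0749), though it did without ES replicate 1 (adjusted p = 0.031). Of 27 germinal-centre genes 17 were called higher and 4 lower. Among lysosomal genes 19 of 29 were higher and 4 lower, with 12 and 5 under RLE scaling. Over all tested genes 37.2% were higher and 19.3% lower, and 24.4% and 32.0% under RLE scaling. PSAP, a precursor of sphingolipid activators, was at 95 and 90.8 FPKM in DMSO and 148 and 137 FPKM in ES and rose 1.53 times, and CD68, given above, had the largest rise.

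**Figure D3:**
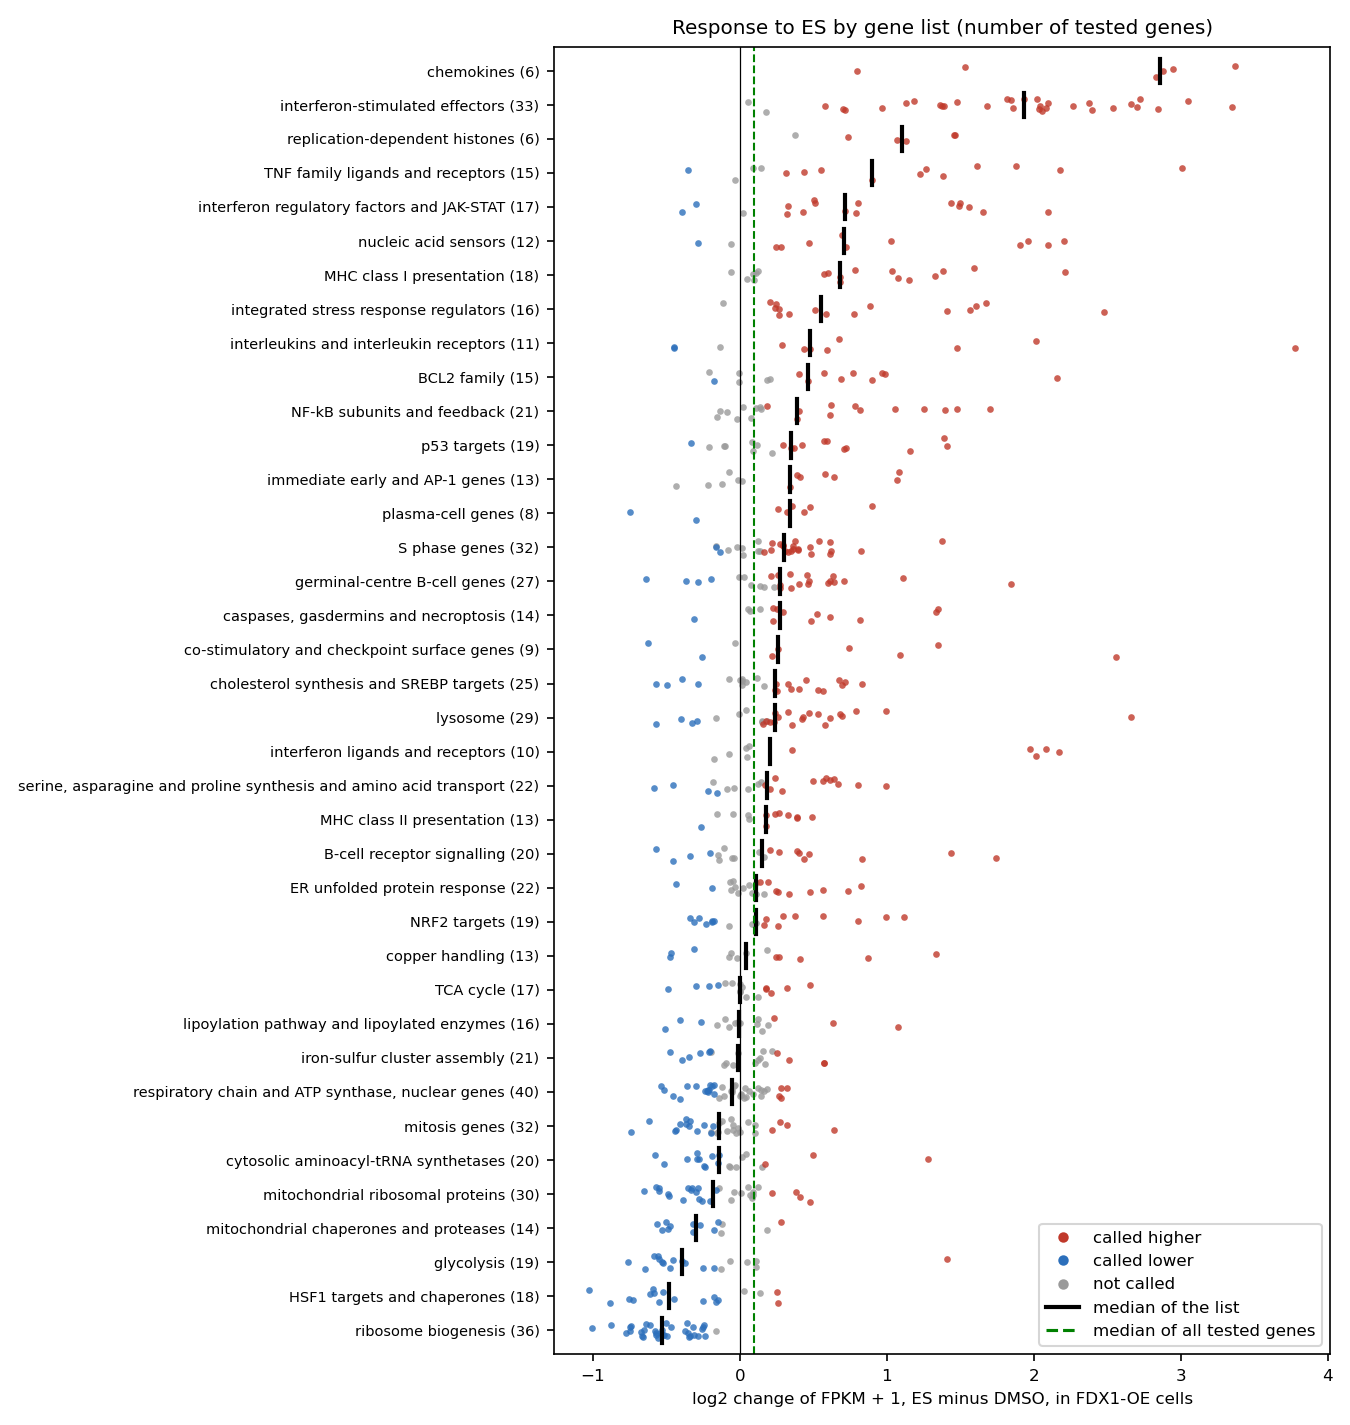
Log2 change of FPKM + 1, ES minus DMSO, in FDX1-OE cells for each tested gene (point) of the gene lists named on the axis, ordered by the median (bar). The dashed line is the median of all tested genes, 0.09. Points of the interferon-stimulated effectors lie right of it up to 3.35 with 2 not called, and points of ribosome biogenesis lie left of 0 down to -1.01 with 1 not called.

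From below 1 FPKM in both DMSO libraries, 11 genes reached 5 FPKM or more in both ES libraries, and 0 genes went the other way. The highest in ES was DHRS2, a mitochondrial short-chain dehydrogenase, with 67 and 38 reads in DMSO and 1151 and 1046 in ES. RTP4, an interferon-induced chaperone of receptors, went from 14 and 33 reads to 538 and 620, and GBP1, an interferon-induced GTPase, from 29 and 29 to 635 and 710. INHBE, a hormone gene that the integrated stress response induces, went from 43 and 43 reads to 543 and 489. In FPKM these genes were at 12.9 and 11.5 (DHRS2), 10.3 and 11.7 (RTP4), 6.41 and 7.07 (GBP1) and 6.35 and 5.64 (INHBE) in ES. Since they were tested through ES alone, their calls are not given as support.

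The largest falls were smaller than the largest rises. DDN, the gene of dendrin, was at 15.4 and 14.7 FPKM in DMSO and 5.25 and 4.89 FPKM in ES and fell to 0.378 times the level in DMSO (log2 change -1.40, SE 0.07, adjusted p = 1.7e-07). SLC17A9, a vesicular nucleotide transporter, was at 40.9 and 40.2 FPKM in DMSO and 18.9 and 18.6 FPKM in ES and fell to 0.476 times (adjusted p = 1.69e-07). TRIB1, a pseudokinase, was at 8.06 and 7.34 FPKM in DMSO and 3.16 and 3.08 FPKM in ES, SAPCD2, which acts in spindle orientation, at 92.8 and 85.4 FPKM in DMSO and 46.8 and 39.9 FPKM in ES, and DBN1, which binds actin, at 65.8 and 65.2 FPKM in DMSO and 33.4 and 32 FPKM in ES. The 2 pairs of libraries did not overlap in any of these 5 genes. SLX1B was at 8.87 and 4.88 FPKM in DMSO and 0.888 and 1.22 FPKM in ES, with DMSO libraries that differed by more than 1.5 times, and its reads can be shared with its copy SLX1A. Among called genes the largest falls in FPKM, after GAPDH, were in HSPA8, HSP90AB1, the ribosomal protein gene RPL3, PTMA and ACTG1. RPL3 was at 2098 and 1968 FPKM in DMSO and 1616 and 1599.5 FPKM in ES. The largest rises in FPKM among called genes were in ISG15, B2M, FTH1, RPLP0, RPSA and MT2A. RPLP0, a ribosomal stalk protein, was at 1908 and 1854 FPKM in DMSO and 2237 and 2359 FPKM in ES and rose 1.22 times.

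The response was then set beside that of control cells. Across the 9727 genes the log2 changes in FDX1-OE and in control cells, which share no library, had a Pearson correlation of 0.845 and a Spearman correlation of 0.815. Genes are not independent replicates, so no p is given. In control cells 2498 genes were higher (25.7%) and 1269 lower (13.0%). The difference between the responses, tested as an interaction, was called for 445 genes (4.57%), 338 of them with a more positive response in FDX1-OE cells (3.47%) and 107 with a more negative one (1.1%). That count depended on single libraries: it was between 120 and 237 without any 1 of 7 libraries and 663 without control ES replicate 1. It was 189 without the filter. Of the 284 genes called higher by at least 2 times, 253 were called higher in control cells as well, with median log2 changes of 1.35 in FDX1-OE and 0.73 in control cells. These 284 were chosen for their size in FDX1-OE cells, and 95 of them were tested through ES alone, so the larger median there is set in part by the choice and nothing is read from it.

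The 4 leading genes stand out for their change in FDX1-OE cells, which favours a larger change there than in control cells. Their interactions are therefore given as values, not as support. EBI3 was at 1.41 and 1.61 FPKM in control DMSO and at 17 and 10.4 FPKM in control ES, a log2 change of 2.51 against 3.78 in FDX1-OE cells (interaction 1.26, SE 0.22, adjusted p = 0.0142). For CXCL10 it was 2.17 against 3.37 (interaction adjusted p = 0.00355) and for ATF5 1.65 against 2.48 (adjusted p = 0.00165). CXCL10 was at 1.79 and 1.73 FPKM in control DMSO and at 6.04 and 5.85 FPKM in FDX1-OE DMSO. The added 1 FPKM therefore shrinks its control change more. Over the alternative fits the CXCL10 interaction was 0.884 to 1.41. The interaction of ATF5 was called in all 16 alternative fits, that of CXCL10 in 14 and that of EBI3 in 12. For NOP16 the change was -0.63 against -1.01 (adjusted p = 0.043), called in 8 of the 16. FDX1 itself had changes of -0.15 in control and 0.23 in FDX1-OE cells (interaction adjusted p = 0.0447), called in 6 of the 16.

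Called interactions were then counted by gene group. Over all genes a more positive interaction was called for 3.47%, and for 249 of the 9389 (2.65%) that were not tested through ES alone. Of the latter kind 4 of 5 chemokines had one, 5 of 14 TNF family genes, 4 of 19 NF-kB pathway genes, 6 of 13 integrated stress response regulators and 5 of 13 BCL2 family genes. These lists are among those with larger shares. Other lists had few or none: 0 of 8 interferon ligands and receptors, 0 of 10 nucleic acid sensors and 1 of 17 regulatory factors and JAK-STAT members. Caspases, gasdermins and necroptosis genes had 0 of 11. Of the members tested through ES alone 1 of 1 chemokines, 0 of 1 TNF family genes, 2 of 2 NF-kB pathway genes, 2 of 3 stress response regulators and 0 of 2 BCL2 family genes had one, which is no support since they had to be higher in FDX1-OE ES. CD40 rose by 0.51 on the log2 scale in control and by 1.22 in FDX1-OE cells (interaction adjusted p = 0.00228), and SQSTM1 by 0.28 and 0.99 (adjusted p = 0.00165). Both were called in all 16 alternative fits, as was LMO2. LMO2 was at 7.79 FPKM in control DMSO and 7.47 FPKM in control ES, means of 2 libraries, where it did not pass (interaction adjusted p = 0.00109). The interferon-stimulated effectors had 4 of 33 with a more positive interaction and 0 a more negative one. Of the 30 not tested through ES alone only 1 had a more positive one, a share near the 2.65% of all such genes. The list medians were 1.94 in FDX1-OE and 1.90 in control cells. IFI6 rose by 3.32 in control and 2.66 in FDX1-OE cells (interaction adjusted p = 0.133) and IFIT3 by 2.71 and 2.08 (adjusted p = 0.106). IFI6 was at 6.73 and 5.71 FPKM in control DMSO and at 18 and 27.6 FPKM in FDX1-OE DMSO, so the genotypes did not overlap there. Summed over the list, the effectors were at 626 and 600 FPKM in control DMSO and 920 and 1128 FPKM in FDX1-OE DMSO. In ES the sums were 1827 and 1456 FPKM in control and 2991 and 2902 FPKM in FDX1-OE cells. Near-equal median changes therefore do not mean equal levels. MT2A rose by 1.88 in control and 1.95 in FDX1-OE cells (interaction 0.06, SE 0.15, adjusted p = 0.848).

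Among genes that fell, 24 of 36 ribosome biogenesis genes were called lower in control cells (median -0.30, against -0.53 in FDX1-OE cells), and 6 had a more negative interaction. HSP90AB1 had a log2 change of -0.40 in control and -0.76 in FDX1-OE cells (interaction adjusted p = 0.0304), and LDHA one of -0.27 and -0.76 (adjusted p = 0.0145). The interaction of HSP90AB1 was called in 7 of the 16 alternative fits, with a highest adjusted p of 0.116, and that of LDHA in 11, with a highest of 0.085. TUBA4A, an alpha tubulin, was at 152 and 156 FPKM in control DMSO and 144 and 165 FPKM in control ES, and at 159 and 161 FPKM in DMSO and 103 and 114 FPKM in ES in FDX1-OE cells (interaction -0.56, adjusted p = 0.013), called in 13 of the 16. With the values as deposited, cholesterol synthesis genes had 3 higher and 8 lower in control cells, against 13 and 4 of 25 in FDX1-OE cells. Of these genes 5 had a more positive interaction. HMGCS1 had a log2 change of -0.09 in control and 0.53 in FDX1-OE cells (interaction adjusted p = 0.00654), called in all 16.

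**Figure D4:**
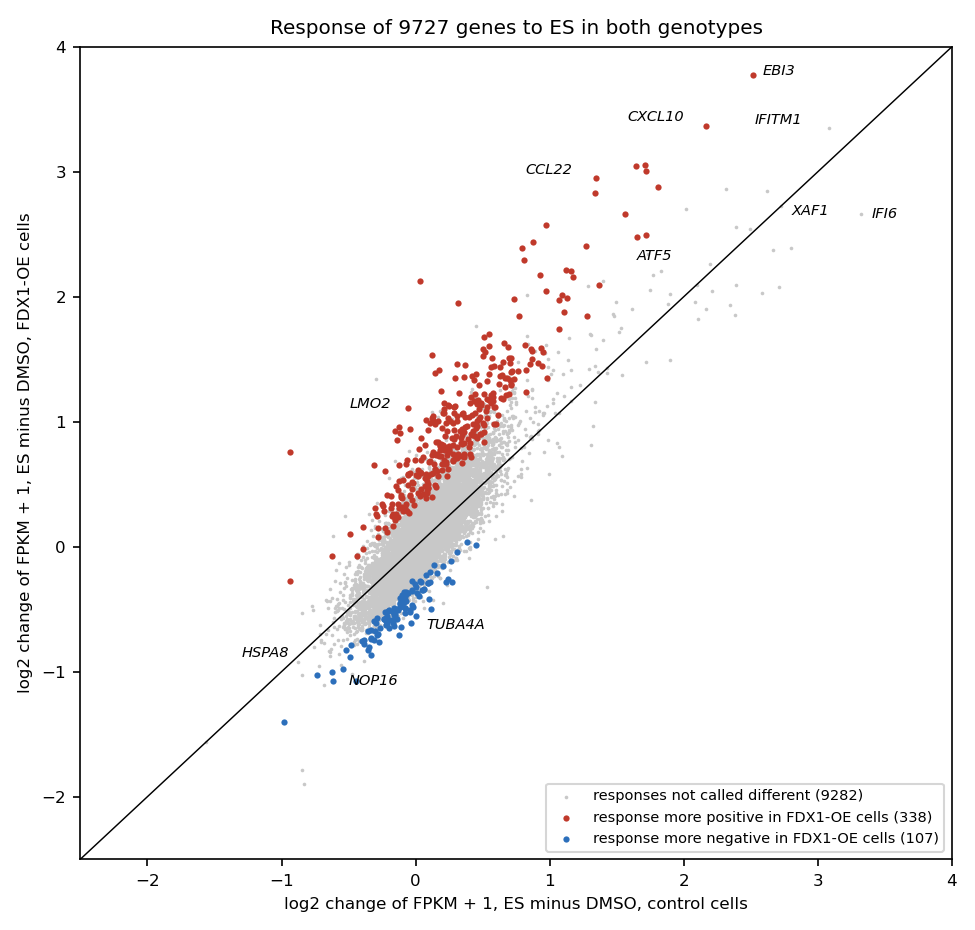
Log2 change of FPKM + 1, ES minus DMSO, in control cells (horizontal) and in FDX1-OE cells (vertical) for the 9727 tested genes, with the line of equal change. Red marks the 338 genes with a more positive response in FDX1-OE cells and blue the 107 with a more negative one; EBI3, CXCL10, CCL22 and ATF5 lie above the line, XAF1 near it and NOP16 and TUBA4A below it.

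Motif matches were counted in the promoters of gene lists and of called groups. The effector and NF-kB lists hold genes grouped by their known pathway. High shares of the motif of that pathway therefore describe the lists and are no result of ES. Windows of 300 bases, from 250 before to 50 after the start, were found for 8138 of the 9727 tested genes (83.7%). An ISRE match was in 3.02% of these and in 19 of 28 promoters of interferon-stimulated effectors (67.9%), among them ISG20. An NF-kB match was in 6.44% of tested genes and in 8 of 19 promoters of the NF-kB pathway list (42.1%). The E-box was in 10.9% of tested genes and in 12 of 29 promoters of ribosome biogenesis genes (41.4%). It was in 24 of 126 promoters of genes called lower by at least 1.5 times (19.0%), and the NOP16 window has none. The metal response element, as searched, was common, in 39.4% of tested genes. Over all 27305 RefSeq windows the shares were 3.65% for the ISRE, 5.72% for the NF-kB consensus, 7.43% for the E-box, 29.3% for the metal response element and 3.67% for the C/EBP-ATF element. Fewer than 80% of the chemokine, class I and JAK-STAT genes and of the genes higher by at least 2 times had a window, so no share is given for them.

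**Figure D5:**
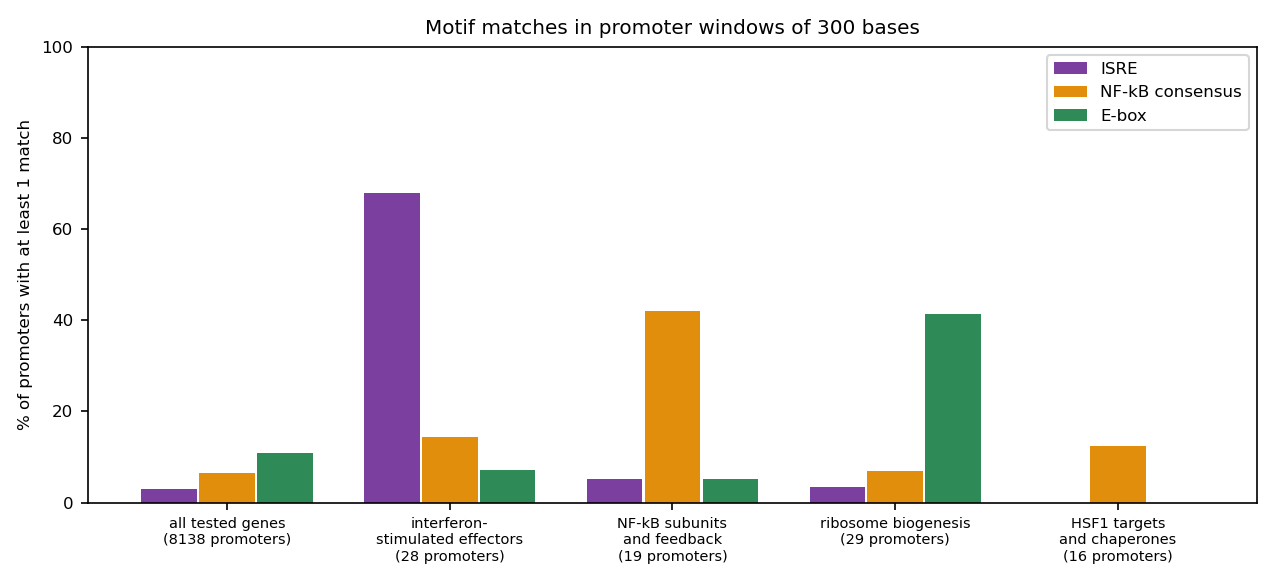
Percentage of promoter windows with at least 1 match to the ISRE, the NF-kB consensus or the E-box, for all tested genes and for 4 gene lists (number of promoters under each name). The ISRE bar reaches 67.9% for interferon-stimulated effectors, the NF-kB bar 42.1% for the NF-kB pathway list and the E-box bar 41.4% for ribosome biogenesis.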

How the data were processed

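RNA of SUDHL-4 cells was taken up in TRIzol and made into libraries with a VAHTS Universal V6 kit, per the labels' protocols. HISAT2, HTSeq, R 3.2.0 and the build hg19 are named in the submitters' processing notes, with no roles given. The authors deposited a value per gene and library. The headers name no unit, and the deposited values were read as FPKM because, in 99.968% of the genes, they were whole multiples of the worth of 1 read (tolerance 0.02 read), with library totals fixed from 300 genes. Totals over the 8 libraries were 33435438 to 35883528 reads.

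The main test used limma (version 3.58.1, under R 4.3.3) and values of log2(FPKM + 1). A mean was fitted for each of the 4 groups over all 8 libraries, with a mean trend in the prior variance and 4 residual degrees of freedom. P-values were adjusted by Benjamini-Hochberg over all 9727 tested genes. Adjusted p-values in the text come from it unless another setting is named, and calls were made where the adjusted p was under 0.05. An exact permutation test of 2 against 2 libraries cannot give a p below 0.33, so none was used. The fits were tested on simulated data. Far fewer genes were changed there than were called here, and all genes had the same spread. That test therefore does not cover the balance of higher and lower calls. Depth limits low genes: 3 reads of a 1-kilobase gene were 0.0836 to 0.0897 FPKM. Intervals from reads would cover counting error only.

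The members and the gene lists were chosen with earlier results of these data known, so no p over a list is given and lists are described by their counts and medians. Named genes were the 4 leading genes and FDX1, the 12 largest rises and falls, key list members and the 3 members with the smallest p of each list, the largest differences in FPKM, genes that went from below 1 to 5 FPKM or more, the largest interactions and the smallest p. A further 51 list members were named after their values were seen. Some genes that the rule chose are not reported here. Alternatives were another pseudocount, filter, scaling (RLE), variance model (no trend, or voom on the recovered reads), the 4 FDX1-OE libraries alone, leaving out each library and the replicate number as a block. Promoter windows came from RefSeq (GRCh38.p14) and were matched by symbol to 8138 genes. The files use hg19, and no coordinate was carried between the builds.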

Additional observations from a re-analysis of the deposited data

Results flagged for a closer look

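These 12 genes were flagged because their response to ES differed between FDX1-OE and control cells by a test of the difference itself (limma, adjusted p below 0.05), and had the largest such differences on the log2 scale among genes with a mean of at least 5 FPKM in any group. A more positive response in FDX1-OE cells was seen for GPR89A (difference 1.69), CCL22 (1.6), GBP1 (1.6), PLAAT4 (1.6), PLAAT2 (1.57) and CXCL11 (1.5). A more negative one was seen for TRIB1 (-0.634), PRR3 (-0.612), NR1D1 (-0.585), GFI1B (-0.583), TCL1A (-0.558) and TUBA4A (-0.557). CCL22, GBP1, PLAAT4 and PLAAT2 were at low levels in DMSO and were tested through the FDX1-OE ES libraries alone, so their differences had to be large there and are given as values, not as support. Over 15 alternatives the difference of PLAAT2 was as low as 0.141 (highest adjusted p 0.952) and that of GBP1 as low as 1.11 (0.225). Each missed the threshold in 1 of them, PLAAT4 in 4 (highest adjusted p 0.109) and CCL22 in 0. Over 16 alternatives GPR89A was called in 11, CXCL11 in 15, TRIB1 in 11, PRR3 in 10, NR1D1 in 8, GFI1B in 10, TCL1A in 16 and TUBA4A in 13. PLAAT4, an interferon-induced phospholipase, had 6 and 24 reads in FDX1-OE DMSO and 192 and 185 in ES, and PLAAT2, of the same family, had 7 and 18 reads in DMSO and 251 and 280 in ES. CXCL11 was at 0.642 and 1.09 FPKM in control DMSO and 2.78 and 2.06 FPKM in FDX1-OE DMSO, so the added 1 FPKM shrinks its control change more. GPR89A can share reads with its near-identical copy GPR89B. It was at 5.15 and 2.13 FPKM in DMSO and 6.56 and 6.29 FPKM in ES in FDX1-OE cells and at 5.49 and 6.72 FPKM in control DMSO and 2.28 and 3.19 FPKM in control ES, and its rise in FDX1-OE cells was lost without DMSO replicate 2 (adjusted p = 0.149) and without either ES replicate (adjusted p = 0.074 and 0.0583). TCL1A, a germinal-centre B-cell gene that activates AKT, was at 34.8 and 32.6 FPKM in DMSO and 27.6 and 27.4 FPKM in ES in FDX1-OE cells and at 40.2 and 36.8 FPKM in control DMSO and 46.9 and 46.6 FPKM in control ES. GFI1B, a repressor of blood cell genes, was at 9.88 and 10.4 FPKM in DMSO and 5.67 and 6.95 FPKM in ES, and NR1D1, a repressor of the clock, at 8.13 and 8.39 FPKM in DMSO and 4.58 and 4.75 FPKM in ES.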

How the results depend on the processing

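Of 245 tested genes chosen by the naming rule or added to it, 223 kept their direction and their side of the threshold in each of the 17 alternatives that gave them a value, which the mean filter of 5 FPKM did for 209 of the 245, voom for 244 and the others for all 245. Genes called higher were 2374 with a mean filter of 5 FPKM and, as it happens, 2374 with RLE scaling, against 3622. Genes called lower were 3108 with RLE scaling, against 1880. Genes higher by at least 2 times were 178 with log2(FPKM + 2), 149 with the mean filter and 579 with voom, against 284, and genes lower by at least 2 times were 5 with log2(FPKM + 2), 17 with RLE scaling and 16 with voom, against 9. Fewer genes were tested under the mean filter, and a larger pseudocount shrinks folds of low genes by construction. The cause of the other changes was not tested. Without 1 library in turn, genes called higher were 2897 to 3640, lower 1466 to 1890, higher by at least 2 times 281 to 298 and lower by at least 2 times 8 to 11. The interactions were 445, with 189 without the filter and 296 without the mean trend. Without 1 library they ranged from 120 (control ES replicate 2 left out) to 663 (control ES replicate 1), with 153 and 169 without control DMSO replicate 1 and 2, 216 and 167 without FDX1-OE DMSO replicate 1 and 2, and 137 and 237 without FDX1-OE ES replicate 1 and 2. With voom on the recovered reads, the interactions of IFNB1 (-0.94), IL2RA (-0.40) and ZBP1 (-1.96) turned sign. Where a fit left 1 library in a group, that library was assumed to vary like the others.

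Same-numbered libraries did not deviate together in all pairs of groups (correlations of their deviations from -0.146 to 0.19, and 0.109 for FDX1-OE DMSO and ES), so the numbers were not taken as a pairing. With the replicate number as a block the counts were 3662 higher, 1915 lower, 285 and 9 by at least 2 times, and 560 interactions.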

Other observations

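Some genes of B-cell receptor signalling and of the plasma-cell programme were called, in both directions. RASGRP3, an activator of RAS in B cells, was at 1.51 and 1.75 FPKM in DMSO and 7.54 and 8.09 FPKM in ES and rose 3.35 times (log2 change 1.75, SE 0.11, limma adjusted p = 7.76e-07). Of 20 signalling genes 9 were called higher and 4 lower, and 7 higher and 8 lower with RLE scaling, near the 37.2% and 19.3% of all tested genes in the main test. FCRL5, an inhibitory Fc receptor-like protein, was at 0.0891 and 0.138 FPKM in DMSO and 2.15 and 1.88 FPKM in ES and was tested through ES alone. Of 8 plasma-cell genes 6 were higher and 2 lower, the latter including FKBP11, a secretory pathway isomerase, at 55.4 and 53 FPKM in DMSO and 32.1 and 31.6 FPKM in ES. Among immediate early and AP-1 genes 7 of 13 were higher and 0 lower, and 6 higher and 2 lower with RLE scaling. With voom or the 4 FDX1-OE libraries alone 2 were lower. Of the 12 not tested through ES alone 6 were higher in the main test, beside 37.2% of all tested genes. JUND was at 43 and 41.6 FPKM in DMSO and 91.2 and 88.3 FPKM in ES and rose 2.1 times (adjusted p = 1.13e-06), while EGR1 was at 4.6 and 6.9 FPKM in DMSO and 3.85 and 4.0 FPKM in ES (adjusted p = 0.0804) and was lower with RLE scaling (adjusted p = 0.0321).

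More genes left the floor than fell to it. In FDX1-OE cells 564 genes listed at 0 in both DMSO libraries were above 0 in both ES libraries, and 57 went the other way. In control cells these counts were 263 and 91. The 564 genes had a median ES mean of 0.0236 FPKM and a highest of 0.974 FPKM, so none of them entered a test.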
